A study of Mus musculus with 6 samples.

Results

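Checkpoint receptors are surface proteins that restrain activated lymphocytes, and their combined presence on T cells is used as a mark of exhaustion. 7 of their genes were followed here, namely Lag3, Havcr2 (TIM-3), Pdcd1 (PD-1), Ctla4, Cd160, Btla and Cd200r1. They were chosen by name as rows of the per-library tables, and all 7 were found, each in 1 row, among 24343 genes listed. Expression was measured by RNA sequencing of NK cells sorted from spleens of female C57BL/6 mice treated with a complex of IL-15 (IL-15C, 3 libraries) or a complex of IL-2 (IL-2C, 3 libraries). The cells were NK1.1+, NKp46+, CD3- and CD1d tetramer-. Dose, timing, age of the mice and the number of mice per library are not given in the sources used here. Cells of untreated mice were not analysed here. Each difference is therefore one between 2 treatments whose cytokines act through shared receptor chains.

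The receptors differ in what they bind and how they signal. LAG-3 binds MHC class II and fibrinogen-like protein; TIM-3 binds galectin-9, HMGB1 and CEACAM1; PD-1 binds PD-L1 and PD-L2; and CTLA-4 competes with CD28 for CD80 and CD86. CD160 and BTLA share the ligand HVEM, encoded by Tnfrsf14, and CD200R1 binds CD200. In mice CD160 is a receptor that resting NK cells already carry, whereas PD-1 and CTLA-4 are best known from activated and regulatory T cells and BTLA from B and T cells.

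The value used is the FPKM, the number of fragments per kilobase of a transcript after scaling to library depth, deposited for each library with a lower and an upper bound. Each bound was read as 2 SD of a fragment count, which gives the number of fragments behind a value. These implied fragments came to between 23526567 and 27212608 per library. Markers of the labelled cell type were high. Ncr1, which encodes NKp46, lay at 754.6 to 797.4 FPKM in IL-15C and 783.1 to 831.7 FPKM in IL-2C, and all 7 NK markers were measured above 0 in every library. Of the T cell markers, Cd3g lay at 31.6 to 44.6 FPKM in IL-15C and 30.7 to 32.9 FPKM in IL-2C, and Cd3d at 15.3 to 22.3 FPKM in IL-15C and 17.1 to 18.7 FPKM in IL-2C. Cd3e lay at 3.57 to 4.58 FPKM in IL-15C and 3.397 to 5.696 FPKM in IL-2C, whereas Cd4 was at or below 0.0333 FPKM and Foxp3 at or below 0.0239 FPKM in every library. Genes with a mean of at least 1 FPKM over the 6 libraries (9831 genes) were tested with limma on log2(FPKM + 1), with Benjamini-Hochberg adjustment and a threshold of 0.05. Whether each library stands for its own mouse is not labelled. The p-values then measure only how these samples spread, which may be technical.

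Promoter windows of RefSeq (build GRCm38.p6, 250 bases before to 50 bases after an annotated start) were held for 5 of the 7 genes, all but Lag3 and Cd200r1. They are shown for Havcr2 and Ctla4, low genes whose 3 IL-15C values all lay above their 3 IL-2C values, and for Cd160, the most abundant gene, which has 2 annotated starts. Capitals mark a match to TGANTCA, the AP-1 type motif, or to TTCNNNGAA, the motif bound by STAT factors that act below IL-2 and IL-15 receptors. Both motifs read the same on both strands. The Havcr2 window is chr11:46454681-46454980 on the plus strand, the Ctla4 window is chr1:60908775-60909074 on the plus strand, and the Cd160 windows are chr3:96829302-96829601 and chr3:96814472-96814771 on the minus strand.
Havcr2: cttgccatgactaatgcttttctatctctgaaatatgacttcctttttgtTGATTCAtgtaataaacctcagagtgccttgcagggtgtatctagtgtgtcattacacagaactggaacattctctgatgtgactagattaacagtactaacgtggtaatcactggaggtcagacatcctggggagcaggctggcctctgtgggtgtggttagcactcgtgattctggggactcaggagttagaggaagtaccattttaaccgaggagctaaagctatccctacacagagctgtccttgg
Ctla4: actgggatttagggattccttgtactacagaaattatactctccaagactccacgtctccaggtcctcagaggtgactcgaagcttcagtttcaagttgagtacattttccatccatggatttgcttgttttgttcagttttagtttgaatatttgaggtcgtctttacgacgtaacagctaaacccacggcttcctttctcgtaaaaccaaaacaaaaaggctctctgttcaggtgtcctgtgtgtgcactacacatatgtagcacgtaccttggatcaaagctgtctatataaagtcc
Cd160, upstream start: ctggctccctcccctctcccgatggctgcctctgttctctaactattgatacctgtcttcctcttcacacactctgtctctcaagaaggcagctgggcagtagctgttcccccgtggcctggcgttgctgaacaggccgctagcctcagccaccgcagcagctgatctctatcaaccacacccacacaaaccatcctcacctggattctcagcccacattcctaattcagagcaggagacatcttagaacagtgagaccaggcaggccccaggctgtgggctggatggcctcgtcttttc
Cd160, downstream start: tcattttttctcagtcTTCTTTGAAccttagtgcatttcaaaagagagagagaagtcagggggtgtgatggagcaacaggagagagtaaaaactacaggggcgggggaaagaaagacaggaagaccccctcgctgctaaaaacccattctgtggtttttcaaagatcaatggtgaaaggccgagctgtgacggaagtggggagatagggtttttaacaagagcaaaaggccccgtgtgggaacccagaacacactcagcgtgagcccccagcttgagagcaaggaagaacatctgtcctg

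Havcr2 held 1 match to TGANTCA, which begins 200 bases before the start. The downstream Cd160 window held 1 match to TTCNNNGAA, which begins 234 bases before that start. The 6 windows of the 5 genes held no further match. Of 32851 windows of the same length, 8.30% hold TTCNNNGAA and 7.81% hold TGANTCA. A match describes letters only and is not a binding site.

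Lag3, Havcr2, Ctla4 and Pdcd1 had all 3 IL-15C values above all 3 IL-2C values, and Cd160, Btla and Cd200r1 had overlapping groups. Pdcd1 rests on 3 fragments or fewer in each library, so its separation is not read as a difference. Among all tested genes 8.15% were separated in the IL-15C direction, and 9.75% of the 2235 genes with a mean of 0.1 to 1 FPKM and 4.17% of the 4247 genes above 0 and under 0.1 FPKM were. In the opposite direction 0 receptor genes were separated, against 25.1% of tested genes and 10.3% of genes with a mean of 0.1 to 1 FPKM. Of the 3 receptor genes abundant enough for the test, 0 passed in limma. 1 of them, Lag3, had an unadjusted limma p under 0.05, in the IL-15C direction. Of the 9831 tested genes, 637 had such a p in that direction and 2006 in the opposite one. Across all tested genes 1.72% were called higher and 4.72% lower in IL-15C, 169 and 464 genes; with a common library median these became 325 and 207. No receptor gene had its deposited bounds apart in all 9 pairs of an IL-15C with an IL-2C library, against 4.28% of tested genes in either direction. In sorted bulk cells a larger share of cells with a transcript and more transcript per cell cannot be told apart.

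**Figure D1:**
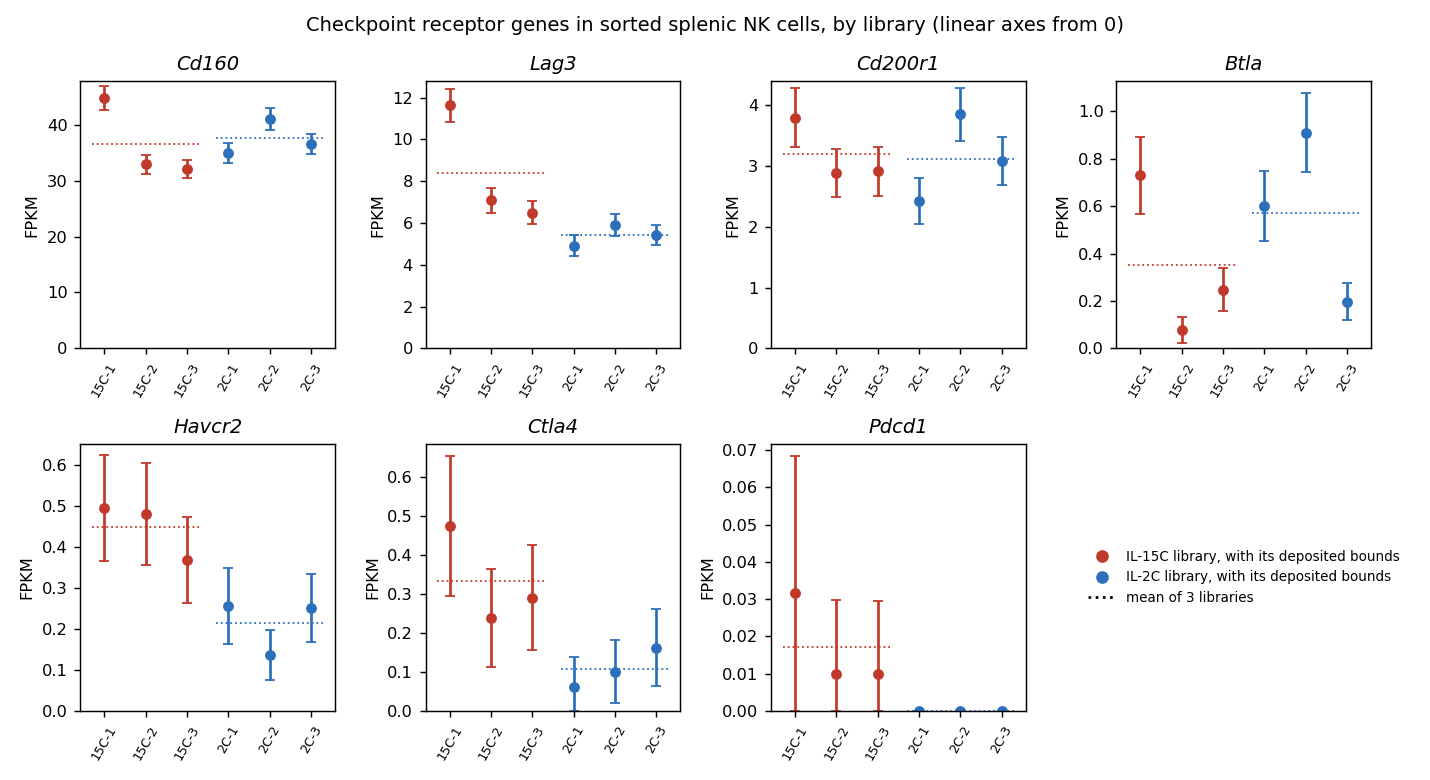
FPKM of the 7 checkpoint receptor genes (y axes, linear from 0) in each library (x axes, 15C-1 to 15C-3 for IL-15C, 2C-1 to 2C-3 for IL-2C); points are estimates, bars the deposited bounds and dotted lines group means. Lag3, Havcr2, Ctla4 and Pdcd1 lie higher in all 3 IL-15C libraries, while Cd160, Cd200r1 and Btla overlap, and Btla differs up to 11.6-fold between libraries. Pdcd1 rests on 3 fragments or fewer in each library.

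The order of levels was the same at the top in all 6 libraries, namely Cd160, then Lag3, then Cd200r1, with no overlap between neighbours in either group. Cd160 made up 72.3% to 75.7% of the summed FPKM of the 7 genes in IL-15C and 79.0% to 80.9% in IL-2C. Its mean over the 6 libraries lay above that of 89.2% of the genes with any signal, against 58.5% for Lag3 and 48.6% for Cd200r1. Below them came Havcr2, Btla and Ctla4 by mean in IL-15C and Btla, Havcr2 and Ctla4 in IL-2C. Neighbours in these orders overlapped, and the order changed between libraries. Pdcd1 was last in every library.

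Lag3, whose product is an inhibitory receptor related to CD4, was the receptor gene with the widest gap among those tested. It had 11.6, 7.08 and 6.49 FPKM in IL-15C libraries 1 to 3, against 4.91, 5.91 and 5.42 FPKM in IL-2C libraries 1 to 3. IL-15C replicate 1 stood apart at the top, and the other IL-15C libraries lay just above the IL-2C range. The means were 8.40 ± 2.81 FPKM in IL-15C and 5.41 ± 0.497 FPKM in IL-2C (SD, n = 3 each), a ratio of 1.55. The log2 change was 0.51 ± 0.17 (SE), with a 95% interval of 0.14 to 0.89 and a limma adjusted p of 0.0894, so it did not pass. Without IL-15C replicate 1 the log2 change fell to 0.28 and did pass, with a limma adjusted p of 0.0420. That refit called 176 of the 9831 tested genes higher and 575 lower, against 169 and 464 with all libraries. Over the 6 omissions of 1 library the limma adjusted p of Lag3 ran between 0.0420 and 0.245. The deposited bounds of IL-15C and IL-2C libraries were apart in 8 of the 9 pairs, the exception being IL-15C replicate 3 against IL-2C replicate 2; at least 8 pairs were apart in this direction for 2.32% of tested genes. Behind the values stood 913, 583 and 536 fragments in IL-15C, against 385, 536 and 514 in IL-2C. The authors' deposited table gives group values that were scaled separately. In the authors' deposited table Lag3 stood at 11.3 FPKM (bounds 9.27 to 13.4) for IL-15C and 7.12 FPKM (5.70 to 8.53) for IL-2C, and it was the only one of the 7 whose group bounds did not overlap. The share of all genes with group bounds apart is not given here. The gene lies on chromosome 6 at 124904359 to 124911705 (mm10, minus strand) and no other annotated gene overlaps it.

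Cd160, a GPI-anchored receptor for HVEM, had 44.8, 32.9 and 32.1 FPKM in IL-15C libraries 1 to 3 and 35.0, 41.1 and 36.5 FPKM in IL-2C libraries 1 to 3. The highest and the lowest value both came from IL-15C. The means were 36.6 ± 7.09 FPKM in IL-15C and 37.5 ± 3.16 FPKM in IL-2C (SD, n = 3 each), and the log2 change was -0.05 ± 0.11 (SE; 95% interval -0.30 to 0.21; limma adjusted p = 0.819). On this scale the interval spans a ratio of 0.810 to 1.16, so a larger shift in either direction lies outside it. Its sign turned when IL-15C replicate 2 or 3 or IL-2C replicate 2 was left out. Libraries differed less in fragments than in FPKM. Implied fragments per 1000000 fragments of the library were 70.6, 62.3 and 62.2 in IL-15C libraries 1 to 3, against 64.0, 63.7 and 61.4 in IL-2C libraries 1 to 3. The highest library exceeded the lowest 1.15-fold in scaled fragments and 1.39-fold in FPKM. The ratio between both units varied 1.25-fold over libraries for Cd160, against 1.05-fold for Lag3 and 1.49-fold for Ctla4. Cd160 lies on chromosome 3 at 96798763 to 96829351 (minus strand), where Pdzk1 of the plus strand overlaps it; Pdzk1 averaged 1.31 FPKM in IL-15C and 1.36 FPKM in IL-2C. Whether strand was used in counting is not stated in any label.

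**Figure D2:**
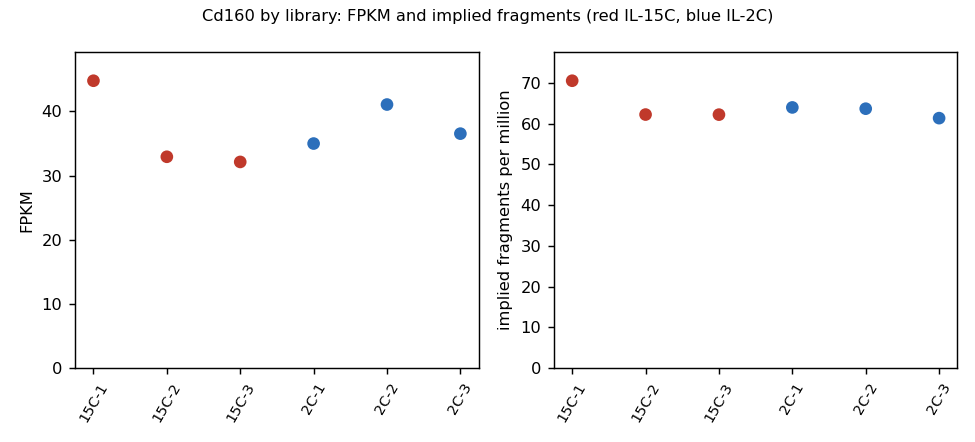
Cd160 in each library as FPKM (left) and as implied fragments per 1000000 (right), both axes linear from 0; points are single libraries, 15C for IL-15C and 2C for IL-2C. IL-15C replicate 1 is highest on both scales, at 44.8 FPKM and 70.6 fragments per 1000000, and the other 5 libraries lie between 61.4 and 64.0 fragments per 1000000.

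Cd200r1, the inhibitory receptor for CD200, had 3.80, 2.89 and 2.92 FPKM in IL-15C libraries 1 to 3 and 2.43, 3.85 and 3.09 FPKM in IL-2C libraries 1 to 3. The IL-2C values held both the lowest and the highest library. The means were 3.20 ± 0.517 FPKM in IL-15C and 3.12 ± 0.712 FPKM in IL-2C (SD, n = 3 each), with a log2 change of 0.03 ± 0.13 (SE; 95% interval -0.25 to 0.32; limma adjusted p = 0.885). Its sign turned without IL-15C replicate 1 or without IL-2C replicate 1. Relatives of the gene differed in level: Cd200r4, whose product is reported to be an activating member of the family, averaged 37.7 ± 0.9501 FPKM in IL-15C and 39.9 ± 1.65 FPKM in IL-2C, while Cd200r2 and Cd200r3 averaged below 1 FPKM in both groups. The family genes lie near each other on chromosome 16 and are similar in sequence, so shared reads make their separate values uncertain. Cd200r1 itself lies at 44765736 to 44794977 (plus strand).

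The other 4 receptor genes fell below the 1 FPKM filter and rest on few fragments. Havcr2, which encodes TIM-3, had 0.494, 0.480 and 0.368 FPKM in IL-15C libraries 1 to 3 and 0.256, 0.137 and 0.251 FPKM in IL-2C libraries 1 to 3. The groups did not overlap, and none of the IL-15C libraries stood far from the others. Fragments numbered 58, 60 and 49 in IL-15C, against 31, 20 and 36 in IL-2C. The means were 0.447 ± 0.0690 FPKM in IL-15C and 0.215 ± 0.0674 FPKM in IL-2C (SD, n = 3 each), a ratio of 2.08. The ratio of fragments, scaled for what 1 FPKM is worth in each library, was 2.10. Its 95% interval, exact and for counting error alone, was 1.61 to 2.76. Such an interval leaves out the spread between libraries. It also excluded 1 for Btla (0.483 to 0.770) and Cd160 (0.9225 to 0.9996), whose groups overlapped. For Cd200r1, which overlapped too, it was 0.903 to 1.12. For Havcr2 a two-sided exact permutation test gave p = 0.1, the smallest that 3 against 3 libraries can give. In limma without a filter the adjusted p was 0.0863, where 0.0368% of genes were called higher in IL-15C. The deposited bounds were apart in 7 of 9 pairs, and both exceptions involved IL-15C replicate 3; at least 7 pairs were apart in this direction for 0.761% of genes with a mean of 0.1 to 1 FPKM, and at least 5 pairs in 1 direction for 4.16%. In the authors' deposited table Havcr2 shares its locus entry with 9 other genes, and its group bounds overlapped there, at 0 to 2.85 FPKM for IL-15C and 0 to 1.71 FPKM for IL-2C. The gene lies on chromosome 11 at 46454931 to 46481254 (plus strand).

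TIM-3 is also carried by myeloid cells, so their markers are given beside it. The 10 myeloid markers summed to 304.8 to 355.5 FPKM in IL-15C and 253.0 to 284.5 FPKM in IL-2C, most of it Itgax, which NK cells of mice also express. Without Itgax the other 9 summed to 120.2, 55.5 and 65.7 FPKM in IL-15C libraries 1 to 3 and 75.2, 66.8 and 49.3 FPKM in IL-2C libraries 1 to 3, and these sums overlapped. Of the 10 markers, 2 had all IL-15C values above all IL-2C values, Itgax and Mpo, and 0 the reverse. The other markers overlapped, among them Lyz2, S100a8 and S100a9. In the IL-15C direction 8.15% of tested genes and 9.75% of genes with a mean of 0.1 to 1 FPKM were separated. In the opposite direction the shares were 25.1% and 10.3%. Mpo, which encodes the myeloperoxidase of neutrophils, had 0.771, 0.272 and 0.480 FPKM in IL-15C libraries 1 to 3, against 0.159, 0.149 and 0.151 FPKM in IL-2C libraries 1 to 3. The part of myeloid cells in the Havcr2 values was not tested.

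Ctla4, the inhibitory counterpart of Cd28, had 0.473, 0.238 and 0.290 FPKM in IL-15C libraries 1 to 3 and 0.0610, 0.101 and 0.163 FPKM in IL-2C libraries 1 to 3. Every IL-15C value was above every IL-2C value, with IL-15C replicate 1 again the highest. They rest on 28, 15 and 19 fragments in IL-15C, with 3, 6 and 11 in IL-2C. The means were 0.334 ± 0.124 FPKM in IL-15C and 0.108 ± 0.0512 FPKM in IL-2C (SD, n = 3 each), a ratio of 3.09. Scaled fragments gave a ratio of 2.89, with 1.72 to 5.06 as its exact 95% interval for counting error alone. The permutation test gave an exact two-sided p of 0.1, again its minimum, and the limma adjusted p without a filter was 0.122. The bounds were apart in 4 of 9 pairs, 3 of them with IL-15C replicate 1; at least 4 pairs were apart in this direction for 2.82% of genes with a mean of 0.1 to 1 FPKM. In the authors' deposited table the group values were 0.451 FPKM (bounds 0.213 to 0.689) for IL-15C and 0.143 FPKM (0.0197 to 0.266) for IL-2C, so the bounds overlapped. Ctla4 lies on chromosome 1 at 60909025 to 60915832 (plus strand), and the related gene Cd28, the costimulatory receptor for the same ligands, averaged 14.9 ± 0.959 FPKM in IL-15C and 14.5 ± 0.927 FPKM in IL-2C.

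The 9 T cell markers measured summed to 71.9, 58.2 and 50.7 FPKM in IL-15C libraries 1 to 3 and 52.7, 57.6 and 54.1 FPKM in IL-2C libraries 1 to 3, mostly Cd3g and Cd3d. IL-15C replicate 1 had the highest sum, and the groups overlapped. Outside the Cd3 genes, Cd4, Cd5, Cd6, Cd8b1 and Foxp3 were highest in IL-2C replicate 2 and Cd8a in IL-15C replicate 1. Of the 9 markers, 0 had all IL-15C values above all IL-2C values and 1 the reverse, Foxp3, at 0.0239 FPKM or less. The share of genes under 0.1 FPKM separated in that direction is not given here. Cd8b1 was at 0 in IL-15C replicate 2 and Cd4 at 0 in IL-2C replicate 3, and 4 or 5 of the 9 markers lay under 0.1 FPKM in each library. The part of T cells in the Ctla4 values was not tested.

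Pdcd1, which encodes PD-1, was listed at 0.0317, 0.00996 and 0.00983 FPKM in IL-15C libraries 1 to 3 and at 0 in all 3 IL-2C libraries. This corresponds to 3, 1 and 1 fragments in IL-15C and 0 in IL-2C. The 3 fragments that a count of 0 allows would be 0.0310, 0.0272 and 0.0270 FPKM in IL-2C libraries 1 to 3, and the IL-15C counts are themselves at or below 3 fragments, so no fold is given. A difference was not detectable at this depth. The gene lies on chromosome 1 at 94038305 to 94052553 (minus strand).

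Btla, a receptor for HVEM, varied most between libraries among the 6 receptor genes other than Pdcd1. It had 0.730, 0.0783 and 0.248 FPKM in IL-15C libraries 1 to 3 and 0.601, 0.910 and 0.197 FPKM in IL-2C libraries 1 to 3, from 79, 8 and 29 fragments in IL-15C, against 66, 120 and 26 in IL-2C. High and low libraries occurred in both groups, and the highest was 11.6-fold above the lowest. The means were 0.352 ± 0.338 FPKM in IL-15C and 0.569 ± 0.358 FPKM in IL-2C (SD, n = 3 each; exact two-sided permutation p = 0.5). B cell genes varied over the same libraries. The 7 B cell markers summed to 15.9, 5 and 7.98 FPKM in IL-15C libraries 1 to 3 and 15.4, 22.3 and 9.20 FPKM in IL-2C libraries 1 to 3. Cd79a, a chain of the B cell antigen receptor, had 2.80, 0.153 and 1.05 FPKM in IL-15C libraries 1 to 3 and 2.58, 4.30 and 0.732 FPKM in IL-2C libraries 1 to 3. Btla and Cd79a put the 6 libraries in the same order, from IL-2C replicate 2 at the top to IL-15C replicate 2 at the bottom. None of the 7 B cell markers had groups that did not overlap. The part of B cells in the Btla values was not tested. Btla lies on chromosome 16 at 45224337 to 45252895 (plus strand).

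**Figure D3:**
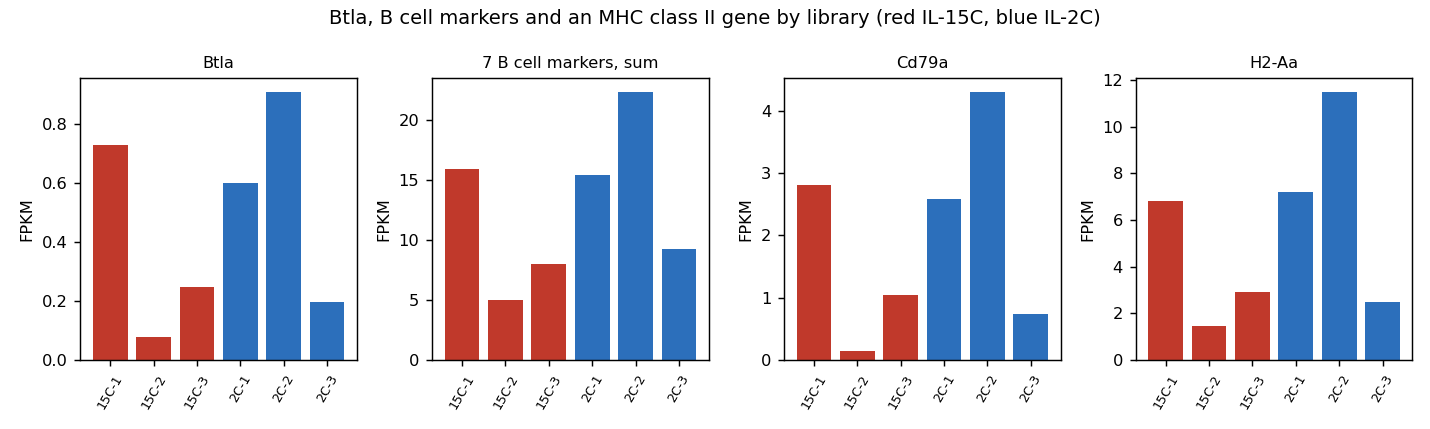
FPKM (y axes, linear from 0) of Btla, of 7 summed B cell markers, of Cd79a and of the MHC class II gene H2-Aa in each library; bars are single libraries, red for IL-15C and blue for IL-2C. IL-2C replicate 2 is highest and IL-15C replicate 2 lowest in all 4 panels.

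IL-15C replicate 1 was the highest of the IL-15C libraries for all 7 receptor genes and the highest of all 6 libraries for 5 of them. Among tested genes it was the highest IL-15C library for 53.2% and the highest of all 6 for 25.0%. Among genes with a mean of 0.1 to 1 FPKM these shares were 44.12% and 23.85%. The summed markers of NK cells, T cells, B cells, myeloid cells and ILC1 were also highest in that library among the IL-15C libraries, and those of mast cells or basophils, mostly Cma1, were lowest there. The NK sum was 10424 FPKM there, against 10229 and 9978 FPKM in IL-15C replicates 2 and 3, and the mast cell or basophil sum was 182.9 FPKM, against 213.3 and 220.8 FPKM. Without Cma1 the other 4 mast cell or basophil markers summed to 2.15, 0.867 and 1.92 FPKM in IL-15C libraries 1 to 3. In IL-2C libraries 1 to 3 they summed to 1.46, 1.32 and 1.48 FPKM, so IL-15C replicate 1 was then the highest. The ILC1 sum was 53.5 FPKM there, 40.6 and 35.5 FPKM in IL-15C replicates 2 and 3, against 41.9, 45.3 and 39.8 FPKM in IL-2C. The part of these cells in the receptor values was not tested.

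Over the 6 libraries, genes of at least 5 FPKM whose log values ran closely alike to Lag3 included Cxcr3, a chemokine receptor gene (Pearson r = 0.994), and Gdf11 (r = 0.991). They were among 7555 genes compared, 58 of which exceeded 0.95; IL-15C replicate 1 was the highest library for Lag3. Cxcr3 averaged 47.4 FPKM in IL-15C and 40.2 FPKM in IL-2C, a log2 change of 0.22 ± 0.09 (limma adjusted p = 0.161). The closest to Cd160 were Ubash3a, Rbmxl1 and Bola3 (r = 0.990, 0.989 and 0.981), and the closest to Cd200r1 were Fam208b, Zfp456 and Dgka (r = 0.983, 0.974 and 0.962). These likenesses are descriptions over libraries.

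Of 14 ligand genes of the receptors, 10 were tested, 1 rose, 0 fell and 9 did not pass in limma, with a median log2 change of -0.06 against -0.04 over all tested genes, of which 1.72% were called higher and 4.72% lower. The riser was Lgals3, a galectin reported to bind LAG-3, at 6.53 ± 1.70 FPKM in IL-15C and 3.38 ± 0.225 FPKM in IL-2C; it lost its call without any 1 of the IL-2C libraries, with a limma adjusted p of up to 0.0826. Lgals9, the galectin that binds TIM-3, stood at 79.3 ± 2.69 FPKM in IL-15C and 76.5 ± 2.00 FPKM in IL-2C. Hmgb1, another TIM-3 ligand, averaged 128.4 FPKM in IL-15C and 145.4 FPKM in IL-2C (log2 change -0.18, limma adjusted p = 0.0511). Both PD-1 ligands were measured. Cd274 (PD-L1) averaged 10.9 ± 0.647 FPKM in IL-15C and 10.8 ± 0.204 FPKM in IL-2C, and Pdcd1lg2 (PD-L2) averaged 2.03 ± 0.345 FPKM in IL-15C and 1.39 ± 0.208 FPKM in IL-2C. For Pdcd1lg2 the groups did not overlap, and the log2 change of 0.34 ± 0.10 had a limma adjusted p of 0.0691.

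Tnfrsf14, the HVEM ligand of CD160 and BTLA, averaged 17.4 ± 0.726 FPKM in IL-15C and 16.7 ± 0.721 FPKM in IL-2C. The CTLA-4 ligand genes were low, with Cd86 at 1.07 FPKM in IL-15C and 1.26 FPKM in IL-2C and Cd80 at 0.103 FPKM in IL-15C and 0.0716 FPKM in IL-2C. Ceacam1 averaged 0.257 FPKM in IL-15C and 0.275 FPKM in IL-2C, and Cd200 stayed under 0.1 FPKM in each library. Fgl1, a LAG-3 ligand made mainly by liver, was listed at 0 in all libraries but IL-2C replicate 2. The MHC class II genes H2-Aa, H2-Ab1 and H2-Eb1, ligands of LAG-3, had log2 changes of -0.75, -0.60 and -0.60 with limma adjusted p of 0.341 to 0.391. H2-Aa had 6.83, 1.48 and 2.91 FPKM in IL-15C libraries 1 to 3 and 7.20, 11.5 and 2.51 FPKM in IL-2C libraries 1 to 3, with its highest and lowest library the same as for the B cell markers.

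Of 15 further receptor genes found, mostly inhibitory ones and including Cd200r4, 11 were tested; 3 rose, 1 fell and 7 did not pass, with a median log2 change of -0.03. Over all tested genes 1.72% were called higher and 4.72% lower. The risers were Tigit, Lilrb4a and Pecam1. Pecam1, which encodes the adhesion and inhibitory molecule CD31, averaged 26.3 ± 1.30 FPKM in IL-15C and 21.0 ± 0.216 FPKM in IL-2C, a log2 change of 0.31 ± 0.05 with a limma adjusted p of 0.0118. Tigit, the receptor for CD155, averaged 24.6 ± 5.17 FPKM in IL-15C and 14.3 ± 0.961 FPKM in IL-2C. Lilrb4a averaged 16.7 ± 6.76 FPKM in IL-15C and 7.37 ± 0.759 FPKM in IL-2C, and has a near-identical neighbour, so its value is uncertain where the counting could split reads between them. Lair1, the collagen receptor, fell, at 12.4 ± 0.0642 FPKM in IL-15C and 14.0 ± 0.430 FPKM in IL-2C (log2 change -0.17, limma adjusted p = 0.0474), but lost its call under each of 3 other scalings and without any 1 of the 6 libraries. The 3 risers kept their calls under those scalings. Each lost its call without IL-2C replicate 1 or 2, Tigit also without IL-15C replicate 2 and Lilrb4a also without IL-2C replicate 3, with a limma adjusted p of up to 0.113.

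**Figure D4:**
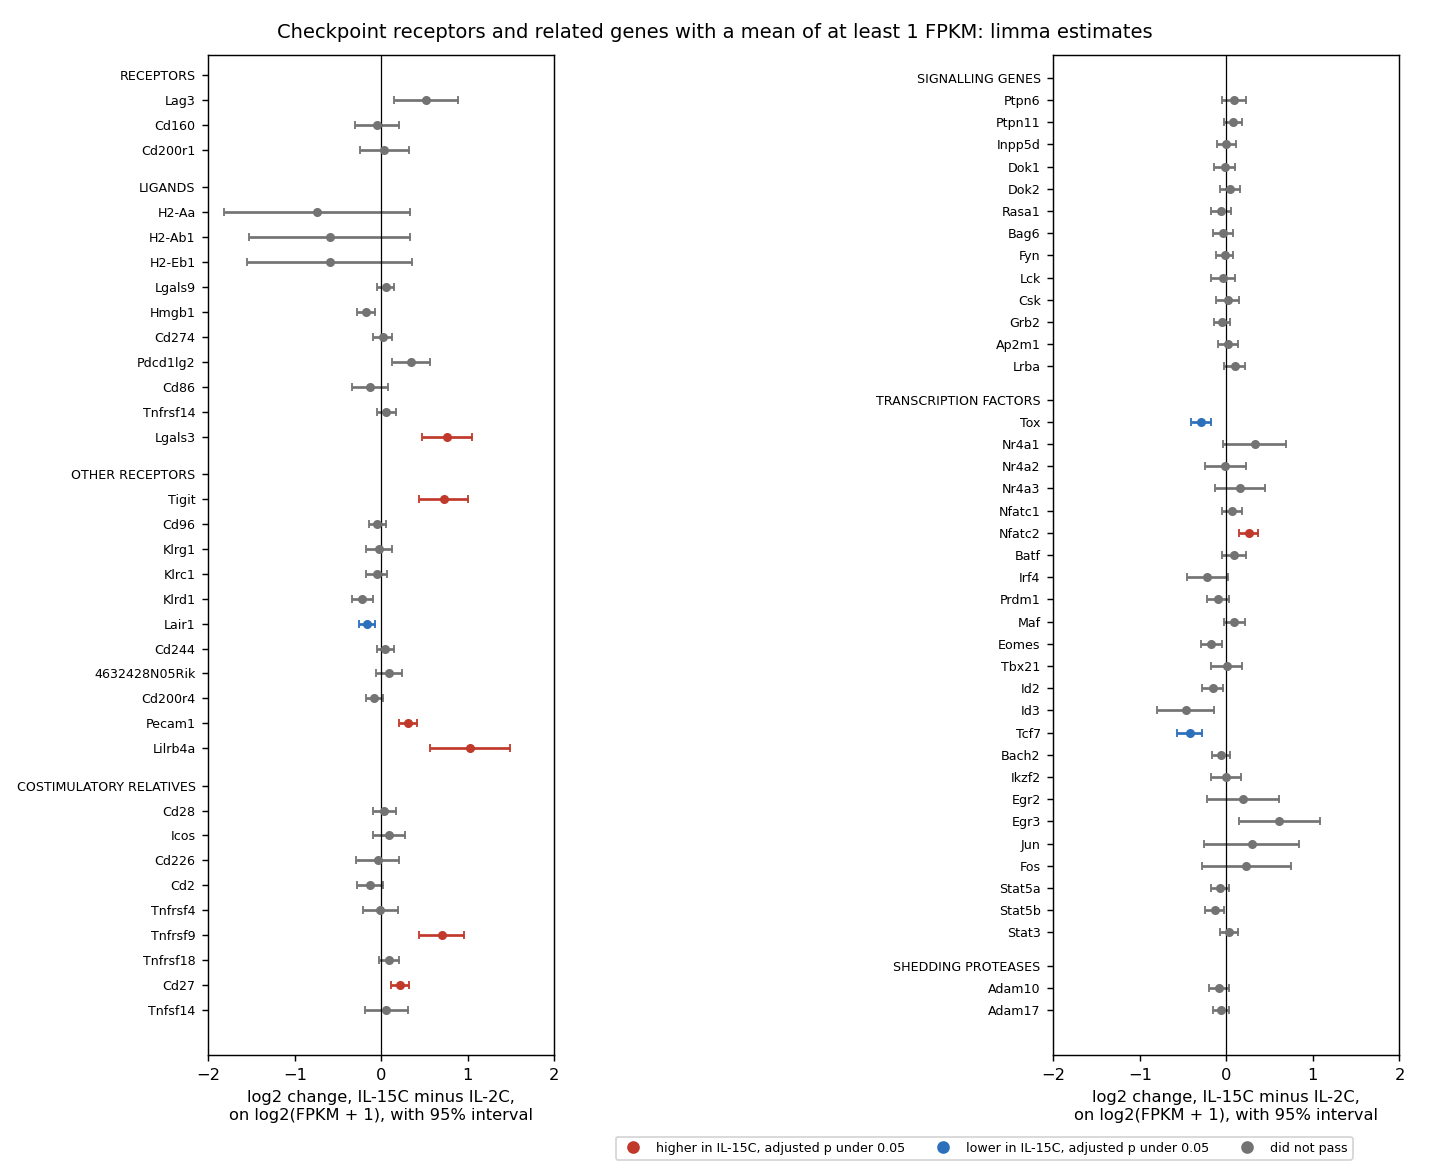
Log2 change on log2(FPKM + 1), IL-15C minus IL-2C (x axis), with its 95% limma interval for each tested receptor gene and related gene (y axis); red marks genes called higher, blue genes called lower (adjusted p under 0.05) and gray those that did not pass. Lag3 is the one receptor gene of the 3 tested whose interval lies above 0, at 0.14 to 0.89, and it did not pass after adjustment.

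Of 9 tested costimulatory relatives, 2 rose (Tnfrsf9 and Cd27), 0 fell and 7 did not pass, with a median log2 change of 0.06, where 1.72% of all tested genes were called higher and 4.72% lower. Tnfsf14, the LIGHT cytokine that also binds HVEM, averaged 10.4 ± 1.61 FPKM in IL-15C and 9.95 ± 1.34 FPKM in IL-2C. Tnfrsf9, which encodes 4-1BB, averaged 23.7 ± 5.05 FPKM in IL-15C and 14.1 ± 0.617 FPKM in IL-2C, and Cd27 averaged 39.6 ± 1.94 FPKM in IL-15C and 33.9 ± 0.957 FPKM in IL-2C. Both lost their call without any 1 of the IL-2C libraries, and Cd27 also without IL-15C replicate 2 or 3. The adhesion receptor gene Cd2 and Tnfrsf18, which encodes GITR, were more abundant and did not pass, with log2 changes of -0.13 and 0.09. Of 13 tested signalling genes, 0 passed in limma and 0 had an unadjusted p under 0.05, with a median log2 change of -0.0027. Over all 9831 tested genes, 637 had such a p in the IL-15C direction and 2006 in the opposite one. Ptpn6, which encodes the phosphatase SHP-1 used by several of these receptors, averaged 59.3 ± 5.51 FPKM in IL-15C and 55.6 ± 0.816 FPKM in IL-2C, a log2 change of 0.09 with a 95% interval of -0.05 to 0.23. Ptpn11, which encodes SHP-2, had a log2 change of 0.08 with an interval of -0.03 to 0.18. The most abundant genes of the list, Lck, Fyn, Dok2 and Csk, had log2 changes of -0.04, -0.02, 0.04 and 0.01.

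Of 24 tested transcription factor genes linked to checkpoint receptor expression, 1 rose, 2 fell and 21 did not pass, with a median log2 change of -0.0028. Beside the 1.72% higher and 4.72% lower among all tested genes, these counts are near the background. Nfatc2, which encodes the calcium-regulated factor NFAT1, rose to 12.6 ± 0.474 FPKM in IL-15C, against 10.4 ± 0.422 FPKM in IL-2C, a log2 change of 0.26 ± 0.05 with a limma adjusted p of 0.0218. Tox and Tcf7 fell, by 0.29 and 0.42 on the log2 scale. Egr3, induced by antigen receptor and calcium signals in T cells, had 3.64, 1.85 and 1.30 FPKM in IL-15C libraries 1 to 3 and 0.928, 1.104 and 1.096 FPKM in IL-2C libraries 1 to 3. Its groups did not overlap and IL-15C replicate 1 was the highest, as for Lag3, but the log2 change of 0.61 ± 0.21 did not pass (limma adjusted p = 0.102). Egr2, Nr4a1, Nr4a2, Nr4a3 and Nfatc1 of the same list had overlapping groups, with limma adjusted p of 0.224 to 0.954. Of the 24 factors, 2 were separated in the IL-15C direction and 7 in the opposite one, against 8.15% and 25.1% of all tested genes. Among the most abundant, Id2, Tbx21 and Eomes had log2 changes of -0.16, 0.0011 and -0.17, none past the test. Id2 and Eomes were among the 7 (limma adjusted p = 0.0976 and 0.0755). Nfatc2 kept its call when IL-15C replicate 1 or 3 was left out and lost it in the other 4 omissions; Tox lost it without IL-15C replicate 3, IL-2C replicate 1 or IL-2C replicate 2, and Tcf7 without IL-2C replicate 2.

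Adam10 and Adam17, proteases that cleave LAG-3 and TIM-3 from the cell surface, did not pass in limma, and 0 of both had an unadjusted p under 0.05. Over all 9831 tested genes, 637 had such a p in the IL-15C direction and 2006 in the opposite one. For Adam17 all IL-15C values lay below all IL-2C values, as for 25.1% of tested genes, and Adam10 overlapped. Adam10 averaged 39.0 ± 1.41 FPKM in IL-15C and 41.4 ± 2.42 FPKM in IL-2C, and Adam17 averaged 26.3 ± 0.308 FPKM in IL-15C and 27.5 ± 0.854 FPKM in IL-2C.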

How the data were processed

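Per the submitters' processing notes, the tools were TopHat2 2.0.13 and Cufflinks 2.2.1, and the genome was mm10. Annotation and strand setting are not given in the sources used here. Values in FPKM, with lower and upper bounds, were deposited by the authors, 1 table per library, and 1 table of group FPKM values from Cuffdiff with bounds, per the file headers. Since FPKM values are not counts, count models were not used. Groups and replicate numbers came from sample titles.

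Repeated rows of 280 genes were added up, and 10 genes with a failed estimate were dropped; neither touched the 7 receptor genes. A fragment number was implied as (2 × FPKM / (upper bound − FPKM)) squared. Of the 42 values of the 7 genes, 9 came within 0.02 of a whole number, and genes with several transcripts need not. These 9 include the IL-2C values of Pdcd1, which are 0 and so whole by construction. The count is therefore a weak check of how the bounds were read. Limma 3.58.1 in R 4.3.3 was run with an intensity trend, two-sided, pseudocount 1, mean FPKM of at least 1; it was tested on simulated data first. A fold change on log2(FPKM + 1) understates the change of low genes. Genes below the filter got the exact permutation test over libraries. Changes are IL-15C minus IL-2C. The genes named are the 7 receptors, their ligands, called genes of each list, then the most abundant up to 4 names a list. Tnfsf14, Cd28, Cd200r2 to Cd200r4, Egr2, Egr3, Nr4a1 to Nr4a3, Nfatc1, Tbx21, Eomes, Ptpn6, Ptpn11 and single markers were named after their values were seen. One gene that the rule names is not reported here. The receptors and lists were chosen with earlier results of these data known. Positions are those of the authors' tables on mm10, 1-based, and strands and overlaps those of GENCODE for that build. Alternatives were pseudocounts of 0.1 and 5, other filters, 3 scalings, other limma settings, a replicate block, leaving out each library and, added after seeing the data, implied fragments per 1000000.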

Additional observations from a re-analysis of the deposited data

How the results depend on the processing

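No receptor gene changed its side of the threshold under another pseudocount, filter, scaling, limma setting or the replicate block where it could be tested; Lag3 passed without IL-15C replicate 1. Over omissions of 1 library its log2 change ran between 0.28 and 0.66, that of Cd160 between -0.20 and 0.036, and that of Cd200r1 between -0.091 and 0.16. The cause was not tested. The sign of Cd160 also turned with implied fragments per 1000000, at 0.042, and that of Cd200r1 with array weights, at -0.16. Counts of genes called higher and lower in IL-15C, 169 and 464, became 6 and 9 without a filter, 325 and 207 with a common library median, 307 and 269 with quantile normalization, and 440 and 1667 with array weights; over omissions of 1 library they ran between 14 and 176 and between 15 and 575. Receptor genes with all 9 pairs of bounds apart numbered 0, against 1 with the authors' group bounds and 2 with at least 5 pairs apart. At least 5 pairs were apart in 1 direction for 21.2% of tested genes and 4.16% of genes with a mean of 0.1 to 1 FPKM. For the authors' group bounds the share over all genes is not given here. With the replicate block, 171 genes were higher and 346 lower; same-numbered libraries had correlations of deviations of -0.03, -0.16 and -0.02, so the numbers were not taken to pair libraries, and no receptor gene changed its call. Depth limits Pdcd1, with 5 fragments in IL-15C and 0 in IL-2C. Array weights, the fit without a trend and a filter at 5 FPKM gave no value for Pdcd1, Ctla4, Havcr2 and Btla. The filter at 5 FPKM also gave none for Cd200r1, with a mean of 3.16 FPKM over all libraries.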
